A study of Homo sapiens with 12 samples.

Results

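The 10 genes described here encode epithelial membrane serine proteases, related kallikreins and their cell-surface inhibitors. They were chosen by name, as TMPRSS2, TMPRSS3, TMPRSS4, ST14, PRSS8, PRSS22, KLK6, KLK10, SPINT1 and SPINT2, out of 23284 gene symbols with a measured level. Earlier results of these data were known when they were chosen. Each was measured by RNA sequencing in 12 libraries of PANC-1, an established human pancreatic ductal carcinoma cell line. All 12 libraries came from the one line infected with a retrovirus that carries ZsGreen fused to the degron of ornithine decarboxylase and kept under G418, so that fluorescence is retained in cells with low proteasome activity. The infected line, in which few cells are ZsGreen positive, is degron (−), and the most fluorescent cells of a population enriched from it by repeated sorting and culture are degron (++). Each population gave 2 libraries for each of 3 conditions, unirradiated at 48 h, irradiated with 4 Gy of cesium-137 gamma rays at 30 h, and irradiated with 4 Gy at 48 h. The starting point of these hours is not given. Below, 30 h or 48 h after 4 Gy names the irradiated libraries labelled with that hour, and not a known time since irradiation. In the labels, the titles of the 6 degron (−) libraries read ZsGreen– whereas the descriptions read d+, a name that fits the enriched population, and the titles were followed. Nothing says that the 2 libraries of a group came from separate cultures, so the p-values measure the spread between these libraries, which may be technical.

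Type II transmembrane serine proteases such as matriptase (ST14) and the TMPRSS enzymes, and membrane-tethered proteases such as prostasin (PRSS8), cut proteins at the surface of epithelial cells. Matriptase and prostasin can activate each other, and they act on substrates that include the epithelial sodium channel, growth factor precursors and adhesion proteins. The Kunitz-type inhibitors HAI-1 (SPINT1) and HAI-2 (SPINT2) are membrane proteins that block them. Kallikreins such as KLK6 and KLK10 are secreted serine proteases found in many epithelial tumors.

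Levels are in FPKM, fragments scaled by exon length and by library size, so that levels of different genes can be set side by side per length. Library sums of FPKM ran from 829654 to 916877 in degron (++) and from 707273 to 763064 in degron (−), and read depth is not given in the files. MIR622 alone accounted for between 28.6% and 30.0% of it in the former and between 22.5% and 27.1% in the latter. Among markers of ductal carcinoma cells, CDH1, EPCAM, KRT7, KRT8, KRT18 and KRT19 were all detected in the 12 libraries. The mesenchymal filament gene VIM was at 13.2 to 19.2 FPKM in degron (++) and at 2376 to 2711 in degron (−). Of 14 markers of other cell types, 12 were under 1 FPKM in all 12 libraries and 4 of these were listed at 0 throughout. Summed over the 14, their level lay between 3.60 and 5.70 FPKM in degron (++) libraries and between 177 and 201 FPKM in degron (−) libraries, where it came almost wholly from CD68 and COL1A1. The part of these differences in the results below was not tested. Because the libraries are from bulk cells, fewer cells expressing a gene and less RNA per cell cannot be told apart.

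The 250 bases upstream of the start site were at hand for 4 of the 10 genes, TMPRSS3, KLK6, KLK10 and SPINT1 (RefSeq, build GRCh38.p14). Those of KLK6, SPINT1 and TMPRSS3 are shown because these 3 genes differed strongly between the populations. KLK6 lies on the minus strand with this window at chr19:50969592-50969841, SPINT1 on the plus strand at chr15:40843798-40844047 and TMPRSS3 on the minus strand at chr21:42389150-42389399. Sequences run 5′ to 3′ in lower case, and capitals mark the E-box CAGGTG.
KLK6: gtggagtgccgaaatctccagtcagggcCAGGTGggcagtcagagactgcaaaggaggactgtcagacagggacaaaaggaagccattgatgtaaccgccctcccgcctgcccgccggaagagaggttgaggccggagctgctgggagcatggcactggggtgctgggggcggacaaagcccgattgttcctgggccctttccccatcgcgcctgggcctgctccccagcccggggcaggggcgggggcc
SPINT1: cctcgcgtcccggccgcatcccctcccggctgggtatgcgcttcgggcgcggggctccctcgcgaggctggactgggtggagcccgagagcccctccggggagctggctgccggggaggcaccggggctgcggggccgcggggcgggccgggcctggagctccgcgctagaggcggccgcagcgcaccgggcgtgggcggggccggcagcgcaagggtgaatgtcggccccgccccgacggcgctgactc
TMPRSS3: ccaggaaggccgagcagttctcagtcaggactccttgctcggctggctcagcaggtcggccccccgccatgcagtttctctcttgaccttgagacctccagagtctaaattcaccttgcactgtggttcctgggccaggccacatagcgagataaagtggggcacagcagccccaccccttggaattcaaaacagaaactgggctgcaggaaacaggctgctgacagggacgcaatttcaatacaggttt
The E-box CAGGTG, the letters bound by ZEB1 and SNAI repressors, was present in 1 of the 4 windows, that of KLK6, and in 17.5% of 27305 RefSeq windows of the same length, counting both strands. The grainyhead motif AACNGGTT was in 0 of the 4 windows and in 1.48% of all. The TATA motif TATAAA was in 0 of the 4 and in 11.1% of all. The GC content was 80.4% for SPINT1, 66.8% for KLK6, 59.2% for KLK10 and 56.0% for TMPRSS3, against a median of 58.0% over all windows.

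By mean level ST14 was in place 2 of the 10 members in both populations, with SPINT1 in place 4 and PRSS8 in place 6. ST14 was at 96.6 and 98.0 FPKM in the 2 unirradiated degron (++) libraries, at 101 and 103 in the irradiated ones at 30 h, and at 99.5 and 104 in those at 48 h. In degron (−), ST14 was at 18.7 and 16.1 without irradiation, at 12.6 and 14.3 at 30 h, and at 24.5 and 27.1 at 48 h after 4 Gy. Every degron (++) library lay above every degron (−) library, and the spread among conditions was wider, relative to the level, in degron (−). SPINT1, which encodes the main inhibitor of matriptase, was at 67.4 and 69.8 FPKM without irradiation, 70.1 and 65.3 at 30 h, and 70.7 and 72.5 at 48 h in degron (++). Its values in degron (−) were 9.63 and 8.81 without irradiation, 7.92 and 8.14 at 30 h, and 13.6 and 14.6 at 48 h after 4 Gy. The 2 genes thus had the same order of conditions in degron (−), with 4 Gy at 30 h lowest and 4 Gy at 48 h highest. PRSS8, which encodes prostasin, was at 22.2 and 20.7 FPKM, 18.6 and 20.5, and 20.5 and 23.3 in degron (++) for the same 3 conditions. It was at 3.28 and 2.07, 2.51 and 1.83, and 3.36 and 4.16 in degron (−). The degron (−) replicates of PRSS8 differed by more, relative to their level, than those of ST14 or SPINT1.

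PRSS22, a tryptase-like serine protease of epithelia, was at 38.2 and 42.4 FPKM without irradiation, 36.8 and 35.6 at 30 h, and 40.4 and 42.4 at 48 h in degron (++). In degron (−) it was at 13.8 and 11.9, 14.5 and 14.3, and 20.6 and 21.1. PRSS22 had the smallest log2 difference among the tested members that were higher in degron (++). KLK6 was at 65.8 and 65.2 FPKM, 74.9 and 70.4, and 72.9 and 72.6 in degron (++). It was at 9.84 and 8.43, 6.40 and 8.12, and 10.5 and 13.9 in degron (−). KLK10 was less abundant, at 3.88 and 3.96 FPKM, 2.83 and 2.63, and 3.49 and 3.21 in degron (++), and at 0.470 and 0.278, 0.172 and 0.0300, and 0.231 and 0.520 in degron (−). Both kallikreins were separated between the populations in every library.

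The 3 TMPRSS genes did not share one pattern. TMPRSS3, a transmembrane protease known for its role in hearing, was at 8.73 and 7.79 FPKM without irradiation, 6.52 and 5.30 at 30 h, and 6.93 and 7.96 at 48 h in degron (++). It was at 0.515 and 0.151, 0.348 and 0.150, and 0.451 and 0.486 in degron (−). The study listed TMPRSS3 among the genes most upregulated in degron (++). Its values there match the means of the unirradiated libraries, 8.26 and 0.333 FPKM. The direction of TMPRSS3 is thus not independent evidence. TMPRSS4 was barely detected, at 0.368 and 0.346 FPKM, 0.0600 and 0.105, and 0.166 and 0.207 in degron (++). TMPRSS4 was listed at 0 in 5 of the 6 degron (−) libraries and at 0.0210 in 1 4 Gy library at 48 h. TMPRSS2, the protease known for activating viral surface proteins, went the other way. It was listed at 0 in all 6 degron (++) libraries and was at 1.87 and 1.28, 2.21 and 2.17, and 1.94 and 2.30 FPKM in degron (−).

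SPINT2 was the most abundant member in both populations and the only one whose libraries overlapped between them. It was at 285 and 302 FPKM without irradiation, 309.6 and 309 at 30 h, and 303 and 322 at 48 h in degron (++). In degron (−) it was at 348 and 332, 321 and 328, and 332 and 349.

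**Figure D1:**
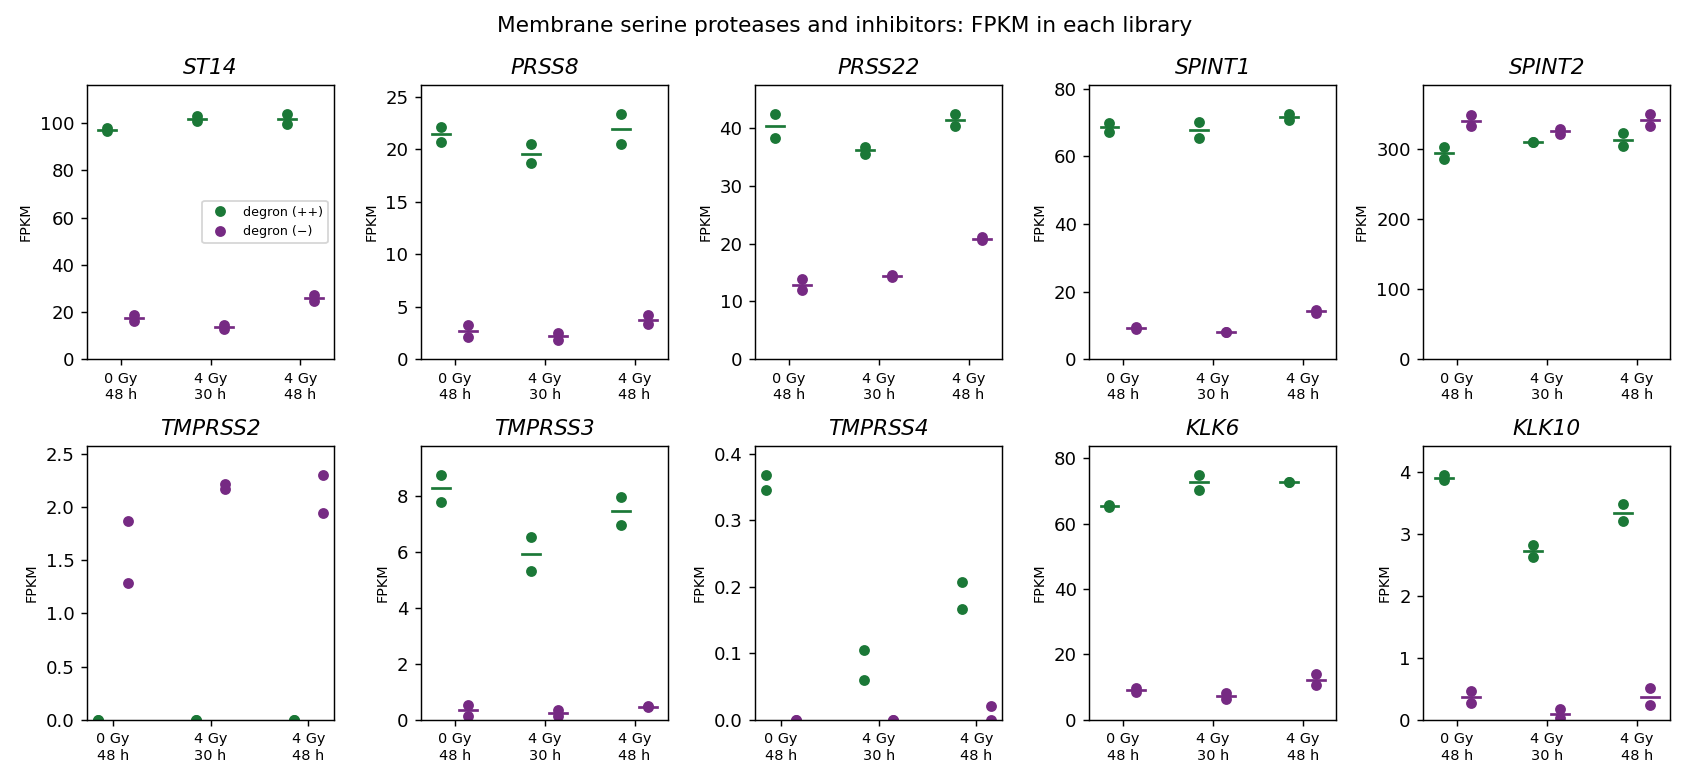
FPKM (linear axis from 0) of each of the 10 genes in each library, with degron (++) in green and degron (−) in purple; each point is 1 library and short lines are means of 2 libraries, omitted for TMPRSS2 and TMPRSS4. For 8 genes all degron (++) points lie above all degron (−) points, among them TMPRSS4, which stays at or under 0.368 FPKM. For TMPRSS2 all lie below at 0, and for SPINT2 the points run from 285 to 349 with overlap. Of all genes tested, 34.1% had every degron (++) library above every degron (−) library and 37.2% had the reverse.

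In degron (++), the order of levels from the top was SPINT2, ST14, KLK6, SPINT1, PRSS22, PRSS8, TMPRSS3, KLK10, TMPRSS4 and TMPRSS2, and of neighbours in this order KLK6 and SPINT1 alone overlapped over the 6 libraries. In degron (−), SPINT2 was again at the top, followed by ST14, PRSS22, SPINT1 and KLK6, which overlapped from one to the next. PRSS8 and TMPRSS2 came after them and overlapped, as did TMPRSS3 and KLK10 below. TMPRSS2 was thus in last place in degron (++) and in seventh place in degron (−).

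The comparison of the populations asks how the selected degron (++) cells differ from the line they came from. Of the 10 members, 9 passed the filter of at least 1 FPKM in at least 2 libraries, and TMPRSS4 did not. TMPRSS3 and KLK10 passed through their degron (++) libraries alone and TMPRSS2 through its degron (−) libraries alone, so that these 3 had to differ to be tested. Without irradiation, 7 of the 9 were higher in degron (++), where 37.6% of the 12946 genes tested were higher, and 2 were lower, where 40.2% of all genes were lower (limma, adjusted p under 0.05). At 4 Gy and 30 h, 7 were higher against 38.3% of all genes, and 1 was lower against 40.8%. At 4 Gy and 48 h, 7 were higher against 37.1% of all genes, and 2 were lower against 39.6%. Of all genes tested, 34.1% had every degron (++) library above every degron (−) library and 37.2% had the reverse. The populations thus differed at most genes. For the tested members the median log2 difference was 2.42 without irradiation, and 2.47 at 30 h and 1.94 at 48 h after 4 Gy, beside medians over all genes of −0.02, −0.02 and −0.01. These counts and medians include the 3 members that had to differ to be tested. Because the members were chosen with earlier results of these data known, they are a description and not a test of the group.

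Differences are given on the log2(FPKM + 1) scale as degron (++) minus degron (−), with standard errors from the fit over all 12 libraries, and they understate the change of low genes. SPINT1 was higher by 2.77 without irradiation (SE 0.0555, adjusted p = 5.71e-10, limma), and its mean level in degron (−) was 13.4% of that in degron (++). ST14 was higher by 2.42 (SE 0.0783, adjusted p = 9.63e-09, limma), with 17.9% of the degron (++) level in degron (−). KLK6 was higher by 2.72 and PRSS8 by 2.63, with 13.9% and 12.5% of the degron (++) level in degron (−). PRSS22 was higher by 1.58 (SE 0.0710), and degron (−) kept 31.9% of its degron (++) level. Among the low members, TMPRSS3 was higher by 2.81 (SE 0.149) and KLK10 by 1.84 (SE 0.121), with 4.03% and 9.55% of the degron (++) level in degron (−). All 7 passed the threshold in each of the 3 conditions, but TMPRSS3 and KLK10 had to differ to be tested.

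SPINT2 was slightly lower in degron (++), by −0.21 without irradiation (SE 0.0454, adjusted p = 0.00224, limma). This value was −0.42 under rescaling to a fixed sum, which moved the median of all genes to −0.21, and −0.30 under quantile normalization. After 4 Gy the difference was −0.07 at 30 h (adjusted p = 0.19, 95% interval −0.17 to 0.03) and −0.12 at 48 h (adjusted p = 0.0344, limma). At 4 Gy and 48 h the call rested on single libraries, with adjusted p = 0.209 without the first degron (++) library and 0.189 without the second degron (−) library of that condition. Mean SPINT2 in degron (−) was 116%, 105% and 109% of that in degron (++) without irradiation, at 30 h and at 48 h after 4 Gy. TMPRSS2, which also had to differ to be tested, passed the threshold as lower in all 3 conditions. No fold is given because it was listed at 0 in degron (++).

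**Figure D2:**
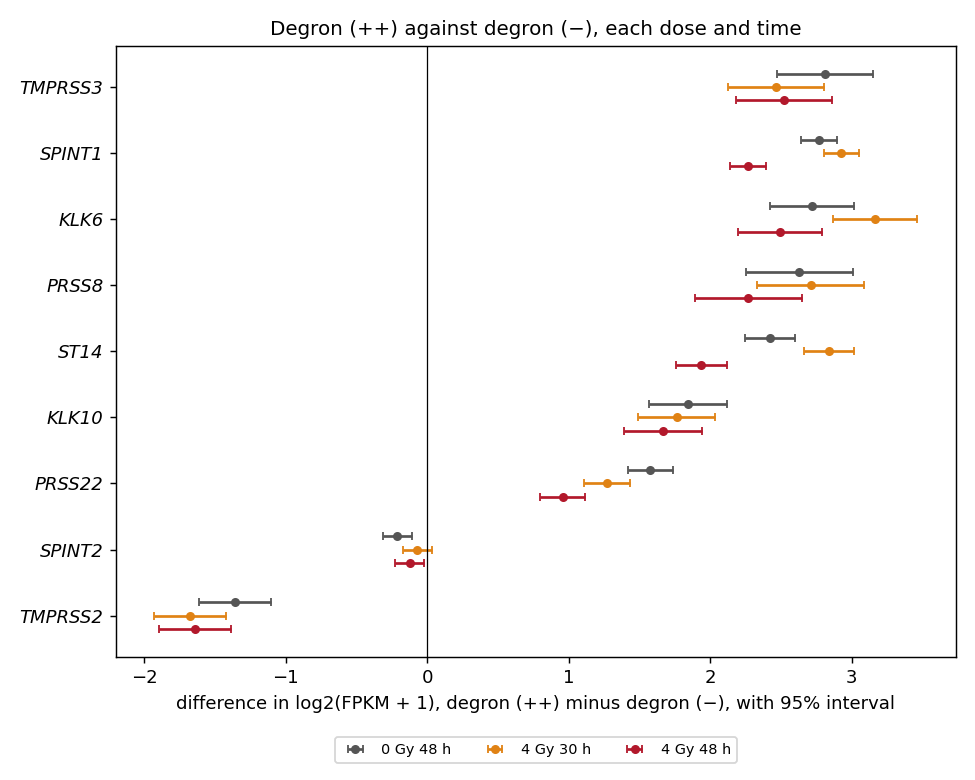
Difference in log2(FPKM + 1) between degron (++) and degron (−) for the 9 tested members in each condition; points are limma estimates and bars their 95% intervals. Higher in degron (++) are 7 genes, which lie between 0.96 and 3.16, SPINT2 lies near 0 and TMPRSS2 lies below 0.

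Because ST14, SPINT1 and SPINT2 encode a protease and its inhibitors, their FPKM ratios within each library are described, with no test. For ST14 over SPINT1, the degron (++) libraries lay between 1.40 and 1.57 with a median of 1.43, and the degron (−) libraries between 1.59 and 1.94 with a median of 1.82. For SPINT2 over ST14, the median was 3.06 in degron (++) (range 2.95 to 3.11) and 19.6 in degron (−) (range 12.9 to 25.6). For SPINT2 over SPINT1, the range was 4.23 to 4.73 in degron (++) against 23.9 to 40.6 in degron (−). The ratio of ST14 to SPINT1 thus moved far less between the populations than the ratios with SPINT2, which restates the levels given above. In none of the 3 ratios did the libraries overlap. For ST14 over SPINT1 the gap was narrow, from 1.574 in a degron (++) library to 1.586 in a degron (−) library, both at 30 h after 4 Gy. Ratios of transcripts say nothing of the proteins.

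**Figure D3:**
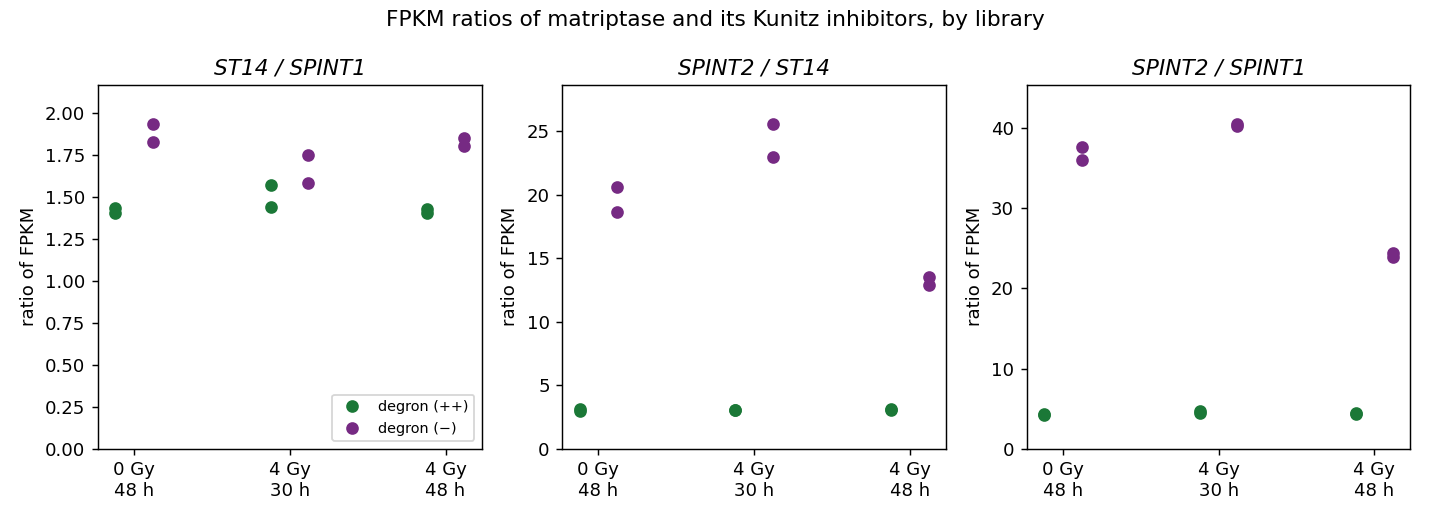
Ratio of FPKM within each library (linear axes from 0) for ST14 to SPINT1, SPINT2 to ST14 and SPINT2 to SPINT1, with degron (++) in green and degron (−) in purple; each point is 1 library. The ratio of ST14 to SPINT1 lies between 1.40 and 1.94 throughout, and the ratios with SPINT2 are higher in all 6 degron (−) libraries, lowest of these at 4 Gy and 48 h.

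The effect of irradiation was compared at 48 h, 4 Gy against 0 Gy, within each population. In degron (++), none of the 9 tested members passed the threshold, where 1.82% of all genes passed (limma). An unadjusted p under 0.05 was found for 2282 of the 12946 genes tested and for 0 members. The differences ran from −0.18 for KLK10 to 0.15 for KLK6. In degron (−), 3 of the 9 passed, all higher at 4 Gy, where 4.73% of all genes passed and 3.85% passed as higher. PRSS22 was higher by 0.66 (SE 0.0710, adjusted p = 0.0027, limma), SPINT1 by 0.56 (SE 0.0555, adjusted p = 0.00202) and ST14 by 0.55 (SE 0.0783, adjusted p = 0.00788). Both irradiated libraries were above both unirradiated ones for each of the 3 genes. KLK6 and PRSS8 had differences of 0.38 and 0.39, with adjusted p = 0.15 and 0.226 (limma). The difference between the populations in their dose effect passed for 0 of the 9 members, where 0.0772% of all genes passed. An unadjusted p under 0.05 was found for 1758 of the 12946 genes tested and for 3 members. These were PRSS22 at −0.62 (adjusted p = 0.0783, limma), SPINT1 at −0.50 (adjusted p = 0.0705) and ST14 at −0.48 (adjusted p = 0.132).

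The dose calls in degron (−) depended on the spread being estimated from all 12 libraries. When the 4 libraries compared were fitted alone, 0 members and 8 of all genes passed, and adjusted p was 0.141 for PRSS22 and SPINT1 and 0.16 for ST14 (limma). ST14 also lost its call without the second irradiated library, at adjusted p = 0.0642, or without the second unirradiated one, at 0.0508. TMPRSS4, tested when no filter was set, was lower at 4 Gy in degron (++) by −0.19 (adjusted p = 0.0321, limma), at levels of 0.368 FPKM or less in every library.

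Time was compared at 4 Gy, 48 h against 30 h, and this comparison shares the 4 Gy libraries at 48 h with the comparison of doses. There were no unirradiated libraries at 30 h. A change that follows irradiation thus cannot be told apart from a change with time alone, also in the interaction with population. In degron (++), 0 of the 9 members passed the threshold, where 1.21% of all genes passed (limma). An unadjusted p under 0.05 was found for 2050 of the 12946 genes tested and for 1 member, PRSS22 at 0.19. In degron (−), 4 of the 9 passed, all higher at 48 h, where 7.18% of all genes passed and 6.01% passed as higher. ST14 was higher by 0.90 (SE 0.0783, adjusted p = 0.000607, limma), SPINT1 by 0.74 (adjusted p = 0.000291), KLK6 by 0.68 (adjusted p = 0.019) and PRSS22 by 0.50 (adjusted p = 0.00427). PRSS8 had a difference of 0.59 with adjusted p = 0.0702 (limma). Mean ST14 in degron (−) was 13.2% of its degron (++) level at 30 h and 25.4% at 48 h after 4 Gy. The corresponding shares were 11.9% and 19.7% for SPINT1, 9.99% and 16.8% for KLK6, and 39.8% and 50.3% for PRSS22.

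The time effect differed between the populations for 2 of the 9 members, where 3.23% of all genes differed. The interaction, as degron (++) minus degron (−), was −0.90 for ST14 (SE 0.111, adjusted p = 0.00765, limma) and −0.66 for SPINT1 (SE 0.0786, adjusted p = 0.00675). It was −0.67 for KLK6 (adjusted p = 0.1) and −0.31 for PRSS22 (adjusted p = 0.147). Within degron (++), the time difference was −0.01 for ST14 (95% interval −0.18 to 0.17) and 0.08 for SPINT1 (95% interval −0.05 to 0.21). The interaction calls of ST14 and SPINT1 held without each of the 8 irradiated libraries in turn. The time calls in degron (−) were lost when the 4 libraries compared were fitted alone, with 0 members and 7 of all genes passing and adjusted p from 0.0682 to 0.151 for the 4 members. KLK6 also lost its call without the first library at 30 h (adjusted p = 0.12) or the second at 48 h (adjusted p = 0.115).

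**Figure D4:**
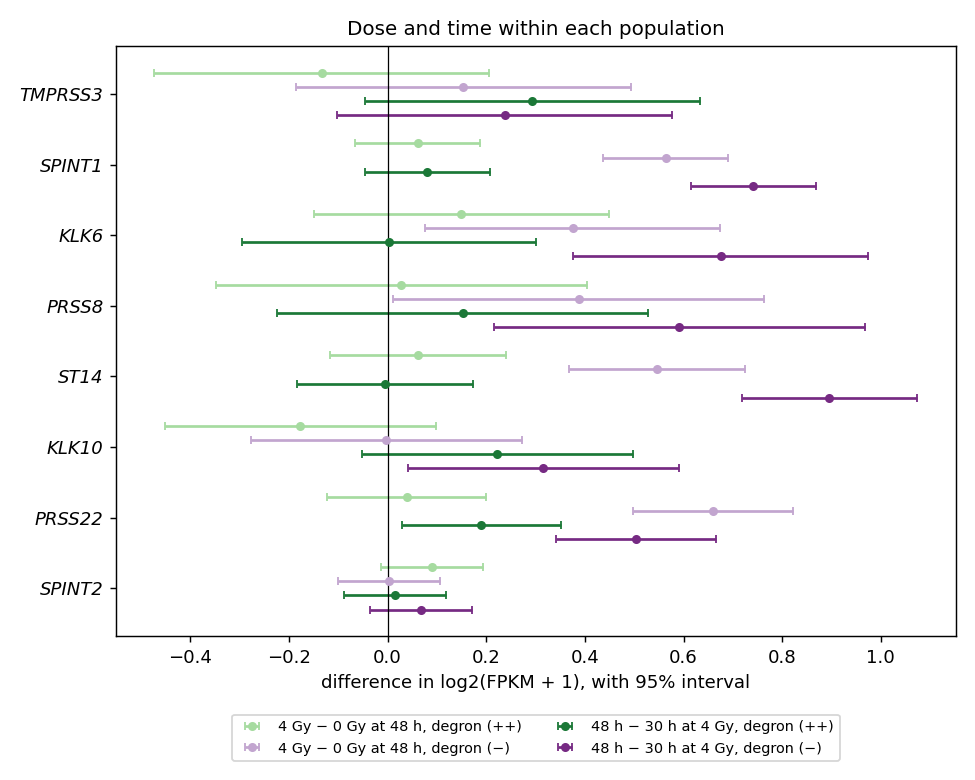
Difference in log2(FPKM + 1) for 4 Gy minus 0 Gy at 48 h (pale) and for 48 h minus 30 h at 4 Gy (dark), with degron (++) in green and degron (−) in purple, for 8 members; points are limma estimates and bars their 95% intervals, and TMPRSS2 is left out because it was listed at 0 in degron (++). ST14, SPINT1 and PRSS22 lie between 0.50 and 0.90 in degron (−) and between −0.01 and 0.19 in degron (++).

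Counts of other epithelial genes were made for the same time comparison in degron (−), where 6.01% of all genes passed as higher. Of the 7 duct carcinoma markers, 3 rose from 30 h to 48 h after 4 Gy and 4 did not pass, and the 3 were CDH1 by 0.79, EPCAM by 0.64 and KRT7 by 0.86. Of 11 tested regulators of epithelial genes, which include splicing regulators and repressors, 8 rose and 3 did not pass. Among them the transcription factors ELF3 and GRHL2 rose by 1.35 and 0.80. As for the members, these calls were lost when the 4 libraries compared were fitted alone, with 0 of the 7 and 0 of the 11 passing. The time effect on CDH1 also differed between the populations, at −0.76 (adjusted p = 0.0039, limma). It differed for 3 of the 7 markers and 5 of the 11 regulators, where 3.23% of all genes differed. For dose in degron (−), 3 of the 7 markers and 4 of the 11 regulators were higher at 4 Gy, against 3.85% of all genes. So were 5 of 16 inhibitors and 8 of 15 substrates and receptors, both listed below. These dose calls came from the fit over all 12 libraries. With the 4 libraries compared alone, 8 of all genes passed. What part such a shared change has in the values of ST14 and SPINT1 was not tested.

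The related genes were compared between unirradiated populations, where, as given above, 37.6% of all genes were higher in degron (++) and 40.2% lower. The lists were not tested against other genes. Of 19 other membrane-anchored serine proteases, 2 passed the filter. TPSG1, a transmembrane tryptase, was listed at 0 in all degron (++) libraries and was at 3.70 to 5.68 FPKM in degron (−). PRSS27, also called marapsin, was higher in degron (++) by 0.67 (adjusted p = 0.00511, limma), at 1.41 and 1.31 FPKM against 0.722 and 0.272. Of 13 other kallikreins 1 passed the filter, KLK8, and it was higher in degron (++) (adjusted p = 0.0102, limma), at 2.80 and 1.62 FPKM against 0.856 and 0.341. The count of kallikreins called went to 0 without the first degron (++) or the second degron (−) library, and with a pseudocount of 0.1. KLK8 passed the filter through its degron (++) libraries alone and TPSG1 through its degron (−) libraries alone, so that these genes had to differ to be tested. PRSS27 also passed through degron (++), with 1 degron (−) library above 1 FPKM. After 4 Gy PRSS27 did not pass the threshold at 30 h or at 48 h. Its levels at 48 h were 1.06 and 1.45 FPKM in degron (++) against 0.963 and 1.04 in degron (−).

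Of 16 tested inhibitors of serine proteases, 10 were higher in degron (++), 3 were lower and 3 did not pass, with a median difference of 1.05. SLPI, the secretory leukocyte protease inhibitor, was at 320 and 303 FPKM in degron (++) and 48.5 and 39.4 in degron (−), a difference of 2.80. WFDC2, a related whey acidic protein domain gene, and SERPINB5, which encodes maspin, were higher by 2.54 and 2.01.

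Of 15 tested substrates and receptors, 9 were higher and 6 lower, with a median difference of 0.48. Among those higher were the sodium channel subunit SCNN1A at 2.30, the tight junction gene CLDN7 at 2.29 and EPCAM at 2.21. EPCAM encodes an epithelial adhesion protein that matriptase is known to cleave. Of the 6 lower, and named after their values were seen, SCNN1B, another subunit of the sodium channel, was at −1.13 and F2RL1, the receptor PAR2, at −0.82. The share of genes lower in this list was near that over all genes. Of 11 tested regulators, a list of transcription factors of epithelial genes, the splicing regulators ESRP1 and ESRP2 and repressors of epithelial genes, 9 were higher, 1 was lower and 1 did not pass, with a median of 1.77. ELF3 was higher by 3.41, KLF5 by 2.66 and GRHL2 by 2.55, and the repressor ZEB1 was lower by −3.11, at 0.0300 and 0.0590 FPKM against 8.17 and 7.84. SNAI2, a repressor that also recognizes E-boxes and is named here after its values were seen, was higher in degron (++) by 1.77, at 34.4 and 35.4 FPKM against 9.70 and 9.34.

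Of the 7 duct carcinoma markers, 6 were higher in degron (++) and VIM was lower, by −7.28. The differences of CDH1, KRT7 and EPCAM were 2.85, 2.66 and 2.21, beside 2.42 for ST14, 2.77 for SPINT1, 2.63 for PRSS8 and 2.72 for KLK6. KRT18 and KRT8 were higher by 0.54 and 0.48 and KRT19 by 0.17, values that depended on the scaling. KRT19 was no longer past the threshold and turned to −0.04 under rescaling of each library to a fixed sum and to −0.05 under quantile normalization. Under quantile normalization KRT8 lost its call at 0.15 (adjusted p = 0.0655, limma) and KRT18 was at 0.26, and under rescaling they were at 0.27 and 0.33.

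Genes whose log2 levels followed each member over the 12 libraries were sought as a description. The nearest to ST14 was LTBR (Pearson r = 0.9994), to SPINT1 CDH1 (0.9997), to KLK6 FDFT1 (0.9989), to PRSS8 ARHGAP23 (0.9978) and to TMPRSS3 ERBB2 (0.998). For PRSS22 it was ABHD4 (0.9928), for KLK10 MEGF6 (0.9976) and for TMPRSS2 ELAC1 (0.9979). These values rest mainly on the gap between the 6 degron (++) and the 6 degron (−) libraries, and each of these 8 members had from 1544 to 2761 genes with r over 0.95. SPINT2 had 1 such gene, AURKB (0.9583).

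SPINT2 lies on chromosome 19 among genes that were mostly lower in degron (++) (order from RefSeq, GRCh38.p14). From ZNF829 to CYP2S1, 79 genes were tested, of which 61 were lower and 7 were higher without irradiation, against 40.2% and 37.6% of all genes, with a median difference of −1.83, and SPINT2 had the 18th highest value of the 79. Next to it on one side, PPP1R14A, an inhibitor of myosin phosphatase, was at 0.148 and 0 FPKM in degron (++) and at 282 and 261 in degron (−). DPF1 was lower by −1.70 and SIPA1L3 was higher by 0.30, a call that rescaling to a fixed sum removed. On the other side, YIF1B was lower by −1.55 and KCNK6 by −1.51, and C19orf33 had a difference of −0.10 (adjusted p = 0.375, limma), which was −0.31 and passed under the same rescaling (adjusted p = 0.00428). The genes immediately on each side of SPINT2 thus had far larger differences than its own. The ends of this stretch were set in earlier work on these same values, so its counts are a description.

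TMPRSS2 and TMPRSS3, which had opposite directions, both lie on chromosome 21, and their neighbours were looked at after these values were seen. Beside TMPRSS3, TFF1 and TFF2, which encode secreted trefoil peptides, were higher by 1.85 and 1.23, and SLC37A1 and PDE9A on the other side by 1.64 and 1.04. ZNF295 and WDR4, at the ends of this window, had differences of 0.00 and −0.18 and did not pass, but WDR4 passed at −0.38 under rescaling to a fixed sum (adjusted p = 0.00175, limma). Beside TMPRSS2, the interferon-induced genes MX1 and MX2 had opposite directions, at 0.99 and −2.97, and RIPK4 was lower by −1.71. BACE2 and C2CD2 were higher by 1.36 and 0.59.

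**Figure D5:**
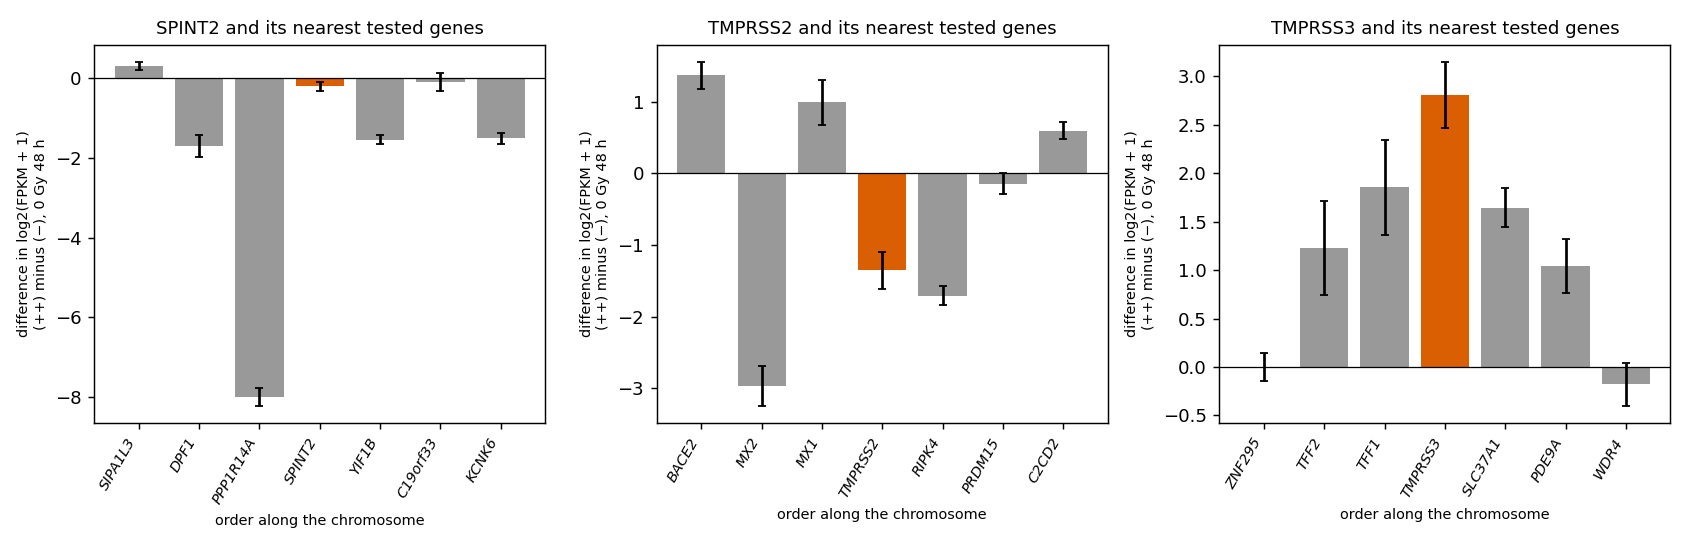
Difference in log2(FPKM + 1), degron (++) minus degron (−) without irradiation, for SPINT2, TMPRSS2 and TMPRSS3 (orange) and the 3 nearest tested genes on each side (grey), in chromosome order; bars are limma estimates with 95% intervals. SPINT2 at −0.21 sits beside PPP1R14A at −7.99, the 2 genes on each side nearest to TMPRSS3 are all higher, and the neighbours of TMPRSS2 go in both directions.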

How the data were processed

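RNA was extracted with the miRNeasy Micro kit and libraries were made with the TruSeq stranded mRNA kit, per the labels. The authors deposited 1 table of FPKM values for each of the 12 libraries. The submitters' processing notes name TopHat2 2.1.1, Bowtie2 2.2.8, SAMtools 0.1.18, Cuffdiff 2.2.1 and the build hg19, with no roles, and the annotation and library normalization are not given in the sources used here. FPKM holds no counts, so the depth is unknown and no count model or counting interval was used. Because the share of MIR622 and the sums of FPKM differ between the populations, and FPKM is relative to each library's total, values of one population against the other depend on that scaling.

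Samples were grouped by population, dose and time from the titles. The 10 members and the lists of related genes were chosen with earlier results of these data known. FPKM values were taken as log2(FPKM + 1), genes with at least 1 FPKM in at least 2 libraries were kept (12946 of 23284), and the 6 group means were fitted over all 12 libraries with limma 3.58.1 (R 4.3.3, empirical Bayes with a trend), with Benjamini-Hochberg adjustment over all genes tested and a threshold of 0.05. The fit was tested on simulated data. Comparisons were between populations in each of 3 conditions, between doses and times within each population, and their interactions. Named genes were all members, up to 4 genes per related list past the threshold at 0 Gy with the largest differences, all duct carcinoma markers, the 3 nearest tested genes on each side of SPINT2 and the 2 genes best correlated with each tested member, of which the first is printed. Some genes that this rule names are not reported here. Alternatives were pseudocount 0.1, no filter, a filter at 5 FPKM, rescaling to a fixed sum, quantile normalization, no trend, the libraries compared alone, a replicate block and leaving out each library compared. Same-numbered libraries of different groups did not deviate together, so the numbers were not taken as pairs. RefSeq GRCh38.p14 was used for gene order and promoter windows only, and 12549 of the 12946 genes tested were placed. Values of 0 are written as listed at 0, since 1 ribosomal protein gene was also at 0 in some library.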

Additional observations from a re-analysis of the deposited data

Results flagged for a closer look

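The change from 30 h to 48 h after 4 Gy differed between the populations for 2 members by the test of the interaction itself (limma). Without unirradiated libraries at 30 h, a change that follows irradiation and one with time alone cannot be told apart. For ST14 the interaction was −0.90, with log2 differences of −0.01 in degron (++) and 0.90 in degron (−). For SPINT1 it was −0.66, with 0.08 and 0.74. Groups of 2 libraries were too small to look for single libraries far from the rest.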

How the results depend on the processing

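For the members, 45 values were refitted singly, those between the populations and those given for dose and time in degron (−) and for the interactions. Of 566 such refits, 544 kept their direction and side of the threshold, 15 lost the threshold, 7 gained it and 0 changed direction. Of the other 34 member values, all from the dose and time comparisons and their interactions, 0 were past the threshold, 14 changed sign under some alternative and 0 passed under any. Of the other genes named, KRT19 changed sign, ZNF295 went to 0.15 under quantile normalization without passing, and KRT8, SIPA1L3, C19orf33 and WDR4 crossed the threshold under another scaling, with the values given above. The count of members higher in degron (++) was 7 in each condition under each leave-one-out fit. It changed with the filter. KLK10, at 3.96 FPKM or less, was not tested with a filter at 5 FPKM. With no filter TMPRSS4 was also called higher, by 0.44 without irradiation (adjusted p = 2.76e-06, limma). After 4 Gy it was higher by 0.11 at 30 h (adjusted p = 0.00789) and by 0.23 at 48 h (adjusted p = 0.000152). With a filter at 5 FPKM, the members lower in degron (++) fell to 1 without irradiation, and after 4 Gy to 0 at 30 h and to 1 at 48 h, since fewer genes were tested. At 4 Gy and 30 h this count was 2 under quantile normalization and 2 under rescaling to a fixed sum, SPINT2 then passing at −0.26 and −0.35. At 4 Gy and 48 h it was 1 without the trend, 1 with the libraries compared alone, and 1 to 2 without each library in turn. The cause was not tested. Rescaling to a fixed sum moved the median of all genes from −0.02 to −0.21 without irradiation, and the share of calls that were higher from 48.3% to 35.9%; at 4 Gy these shares went from 48.5% to 33.3% at 30 h and from 48.3% to 31.7% at 48 h.

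For dose in degron (++), the member count was 1 with no filter, TMPRSS4. For degron (−) it was 0 for dose and 0 for time with the libraries compared alone, where fewer samples estimate the spread, and 2 to 3 for dose and 3 to 4 for time without each library in turn. For the dose interaction it was 2 under quantile normalization and 2 under rescaling to a fixed sum, PRSS22 and SPINT1 at −0.67 and −0.54 and at −0.68 and −0.57. For the time interaction it was 2 to 3 without each library, KLK6 joining at −0.86 without the first degron (−) library at 48 h after 4 Gy.

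Over all genes, the counts for dose and time were less stable than those between populations. Dose in degron (++) gave 236 genes, 17 to 248 under other settings and 1 to 36 without a library. Dose in degron (−) gave 612, with 8 to 710 and 115 to 364. Time in degron (++) gave 156, with 12 to 162 and 15 to 25, and time in degron (−) gave 930, with 7 to 1001 and 281 to 665. The dose interaction gave 10, with 2 to 35 and 0 to 18, and the time interaction 418, with 128 to 475 and 67 to 379.

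Replicate numbers did not pair the libraries, with correlations of deviations from −0.04 to 0.12 over 15 pairs of groups, 2 of them over 0.1. With a replicate block, the calls of the members stayed on their side of the threshold, and the count over all genes for the dose interaction was 2. With 2 libraries a group and no read counts, small differences of low genes such as KLK10 and TMPRSS4 cannot be resolved.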
